A study of Mus musculus with 1183 samples.

Results

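Ccl3, Ccl4, Ccl6 and Ccl9 are 4 genes for CC chemokines, small secreted proteins that draw leukocytes along a gradient. They were chosen by their symbols and make up 4 of the 18072 genes in the count table. They are described here in immune cells of the distal lung, sequenced 1 by 1, of mice at postnatal day 7 after hyperoxia, that is, breathing more oxygen than air holds, which harms a lung still forming its air sacs. It has 598 cells of 1 female and 585 cells of 1 male, so the animal is the replicate (n = 2) and the labels give no strain. Of the 1183 cells, 1173 were sorted for the leukocyte antigen CD45 and 10 came through other gates. Both animals had hyperoxia. Lungs of mice in room air were not analysed here, so nothing is said of an effect of oxygen. The labels sort the cells into 16 subtypes, named basophil, mast cell, mast cell II, neutrophil, Mac I to Mac V, DC I to DC III, B cell, T cell, NK cell and IL cell, without saying what the Mac, DC and IL classes are. The study's title asks how the immune cell types of the newborn lung shape its response to hyperoxia. The question followed here is which of the labelled subtypes held the 4 messages.

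Chemokines of the CC class carry a pair of adjacent cysteines near the start of the mature protein and act on G protein-coupled receptors of leukocytes. Ccl3 and Ccl4 encode the macrophage inflammatory proteins MIP-1 alpha and MIP-1 beta, and Ccl3 binds the receptor Ccr1. Their messages are typically induced within hours of a stimulus. Ccl6 (also C10) and Ccl9 (also MIP-1 gamma) are rodent ligands of Ccr1 that myeloid cells often make without a stimulus, and alveolar macrophages are a known source of Ccl6.

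The family resemblance can be read from the messages. The coding bases around the adjacent cysteines, from the GENCODE M21 annotation of GRCm38, are shown 5′ to 3′. The cysteine codons are in capitals, because these codons define the class. The bases before them hold a run shared by Ccl6 and Ccl9, while those after them do not pair the members.
Ccl3: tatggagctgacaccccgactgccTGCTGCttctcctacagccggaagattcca
Ccl4: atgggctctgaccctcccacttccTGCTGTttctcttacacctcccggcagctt
Ccl6: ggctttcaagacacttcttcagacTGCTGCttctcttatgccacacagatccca
Ccl9: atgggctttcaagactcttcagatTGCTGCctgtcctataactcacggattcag
The first capital triplet is codon 34 of Ccl3 and of Ccl4, codon 50 of Ccl6 and codon 57 of Ccl9. Before the cysteines Ccl6 and Ccl9 share a run that reads ggctttcaagac, which Ccl3 and Ccl4 lack. Over the aligned coding bases, identity was 69.6% between Ccl3 and Ccl4 and 70.5% between Ccl6 and Ccl9, against 60.4% to 66.4% for the other pairs. Ccl3 and Ccl4 have 92 codons each, and Ccl6 and Ccl9 are longer. All 4 genes lie on chromosome 11, Ccl4 on the plus strand and the others on the minus strand. The members are still separable by reads: no 50-base stretch of the transcripts of Ccl3, Ccl4 or Ccl6 occurs in a transcript of another gene, and for Ccl9 59 of 2957 stretches do. Ccl6 lies within the span of E230016K23Rik, a gene on the opposite strand that shares no exon base with it. Whether the authors' counting used strand is not given in the sources used here.

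Depth ran from 16753 to 7560179 reads per cell, with a median of 1100966, and the 30 libraries made by summing the cells of an animal and subtype held 6024429 to 235566546 reads. Levels are CPM, read counts scaled to a common library total, of a summed library unless a single cell is named, and reads carry no molecular identifiers, so intervals cover counting error only. The labels were checked with 4 markers per subtype, except Mac I, which is 1 cell. All 4 markers were highest in the named subtype in both animals for basophils, mast cells, neutrophils, Mac IV, Mac V, DC I, DC III, B cells, T cells and NK cells. For Mac III 3 of 4 were, since Chil3 was higher in neutrophils, and for DC II and IL cells 2 were. Mac II had 1 and mast cell II 0, with the mast cell protease Cpa3 at 34.1 and 124.8 CPM against 29021 and 19032 CPM in mast cells, so the label mast cell II is used without a claim on the cell type. In basophils Mcpt8, a basophil protease, was at 4775 CPM (female) and 10280 CPM (male), against at most 94.4 CPM in any other subtype.

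Ccl3 was a basophil message in these lungs. Basophils held it at 17849 CPM (female) and 27224 CPM (male), with a mean over animals of 22536 ± 6630 (SD, n = 2), 44.6 times the mean of the next subtype. Ccl3 had the fourth highest read count of all genes in both basophil libraries. Next came Mac IV, the subtype with the complement genes C1qa, C1qb and C1qc, at 323.3 and 686 CPM (female first, here and below), then neutrophils at 150.9 and 519 CPM. The basophils of both animals lay above every library of the other subtypes, whereas Mac IV and neutrophils overlapped each other.

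Further down the order Ccl3 neighbours could not be separated. NK cells had 439 and 7.47 CPM, and 86.4% of the female reads came from 1 cell. Mac III had 73.3 and 177.4 CPM, Mac V 62.2 and 139.1 CPM, and mast cells 97.2 and 55.4 CPM. B cells had 8.55 and 143.95 CPM, where 1 cell gave 83.9% of the male reads, and Mac II 2.06 and 142.6 CPM. Each of these subtypes overlapped its neighbour in the order between animals. In DC II the level of 54.3 CPM in the female came from 1 cell and the male had 0.056 CPM. Mast cell II and DC I had at most 10.2 CPM, T cells had 1 read, and DC III and IL cells had none.

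Ccl4 had the same peak and a wider spread between animals. In basophils it was at 10106 and 23196 CPM (mean 16651 ± 9256, SD, n = 2). Mac IV was again next, at 226.9 and 449 CPM, and it is the only other subtype in which both animals were above 200 CPM. The remaining levels came mostly from 1 animal: NK cells had 301.1 and 0 CPM, mast cells 188.5 and 0.036 CPM, B cells 0 and 164.3 CPM, DC II 0 and 114.9 CPM, and neutrophils 111.5 and 7.77 CPM. Single cells supplied much of these, 100% of the reads in female NK cells and male DC II and 94.4% in male B cells. Mac III had 7.69 and 69.4 CPM, where 1 cell gave 93.2% of the male reads. Below them Mac V had 3.74 and 19.7 CPM, Mac II 2 reads, T cells 1 read, and DC III and IL cells none. Every subtype from Mac IV down to Mac V overlapped its neighbour in the order.

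Ccl6 peaked in macrophages instead. Mac III, which led in Car4, Plet1 and Krt79 (all 3 known from alveolar macrophages), had 13072 and 16291 CPM (mean 14681 ± 2276, SD, n = 2). Basophils followed at 5163 and 9728 CPM, below both Mac III libraries and above all others. Neutrophils had 1435 and 1626 CPM, Mac II 1128 and 1447 CPM, Mac V 800 and 1251 CPM, DC II 967 and 604 CPM, and Mac IV 289.04 and 623 CPM. From neutrophils to Mac IV each subtype overlapped the next. In male Mac IV 1 cell at 18190 CPM gave 63.1% of the Ccl6 reads.

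The other subtypes had little Ccl6. DC I had 26.2 and 170.5 CPM, B cells 51.5 and 28.4 CPM, and DC III 42.9 and 14.3 CPM. T cells had 98.4 CPM in the female, 72.8% of it from 1 cell, and 0.749 CPM in the male. Mast cells had 2 reads in libraries of 61799099 and 27561347 reads, NK cells and mast cell II 1 read each, and IL cells were at 0.138 and 0 CPM.

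Ccl9 was again highest in basophils, at 11923 and 12090 CPM (mean 12006 ± 117.7, SD, n = 2), the closest agreement between animals of the 4 peaks. DC II had 3438 and 881 CPM. Of the 4 conventional dendritic cell markers checked for DC II, Cd209a and Mgl2 were highest there in both animals, whereas Itgax was higher in Mac II or Mac III and Clec10a, in the female, in Mac IV. Mac III had 1746 and 1406 CPM, within the spread of DC II and above both libraries of Mac IV (798 and 540 CPM). Mac II (511 and 595 CPM) and Mac V (447 and 539 CPM) overlapped Mac IV or each other. A gap followed: DC III, B cells, mast cells, DC I and mast cell II had 30.3 CPM or less in each animal. Neutrophils had 9 reads of Ccl9 in all (0.024 and 0.152 CPM), T cells 3 reads, and NK and IL cells none.

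**Figure D1:**
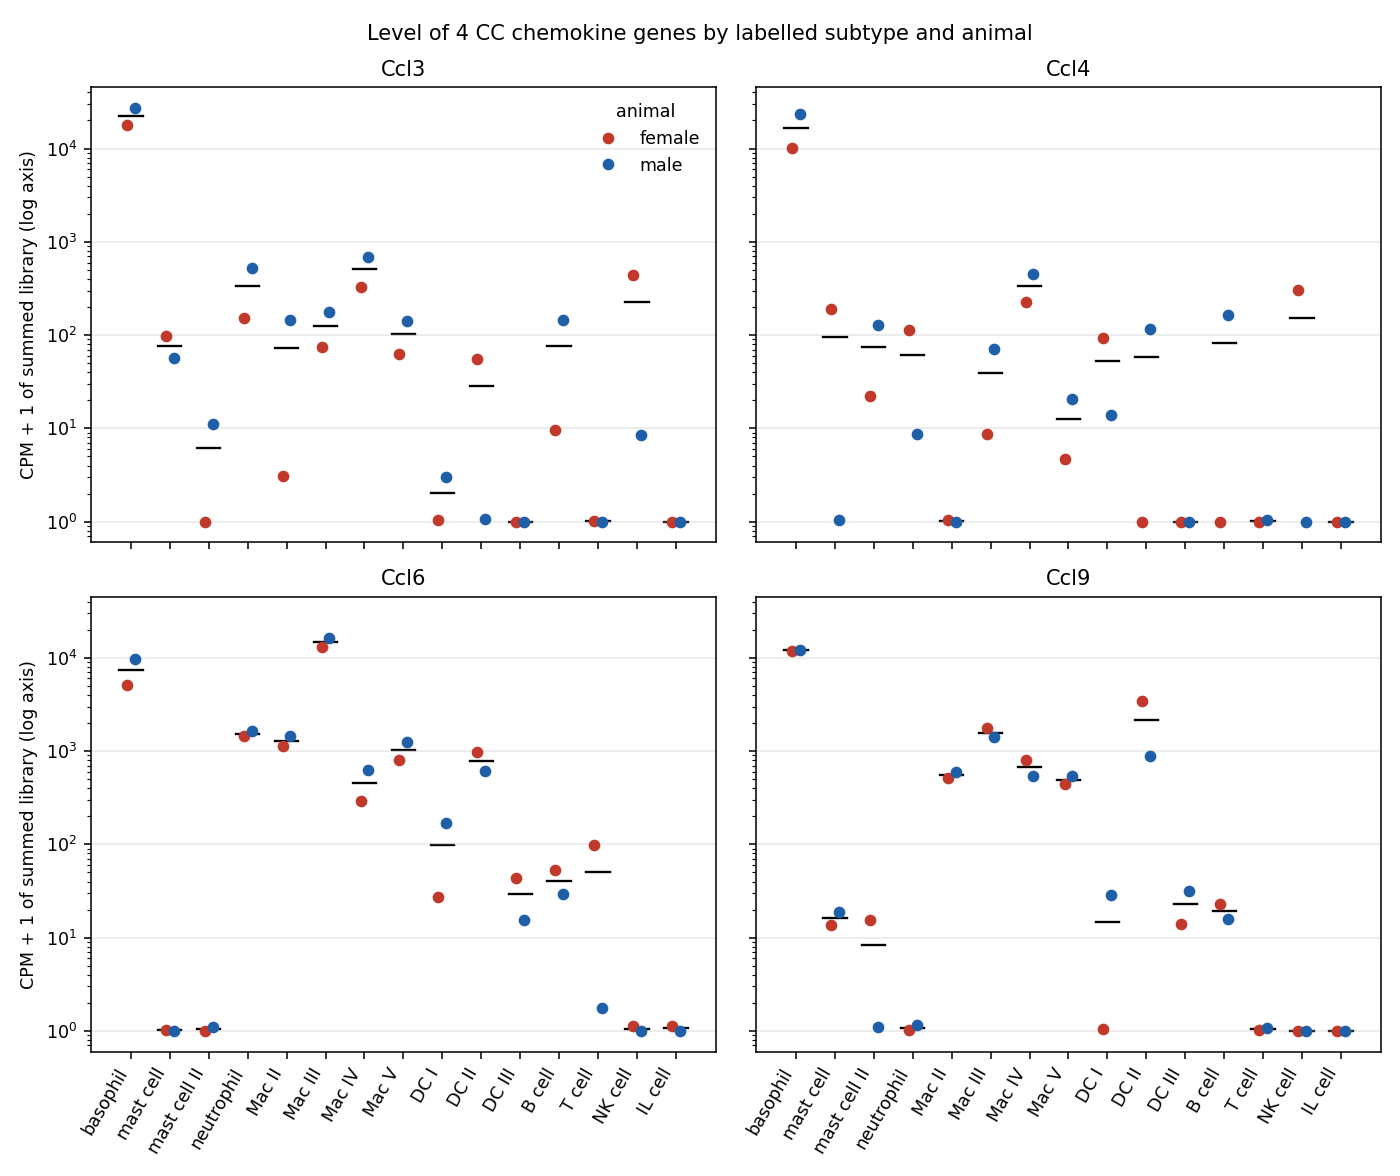
Level of each gene (CPM + 1 of the summed library, log axis) in 15 labelled subtypes. Each point is 1 animal and each bar the mean of both, so that Ccl3, Ccl4 and Ccl9 peak in basophils, Ccl6 peaks in Mac III at 14681 CPM, and Ccl9 is near 0 in neutrophils where Ccl6 is at 1531 CPM.

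Longer messages collect more fragments, so levels of different genes were set side by side per kilobase of exon. On that scale basophils had 29421 ± 8655 CPM per kb of Ccl3, 25229 ± 14024 of Ccl4, 4148 ± 1798 of Ccl6 and 3943 ± 38.6 of Ccl9 (SD, n = 2). Per kilobase Ccl3 and Ccl4 were thus above Ccl6 and Ccl9 in both animals, while Ccl3 and Ccl4 overlapped. Mac III had 8179 ± 1268 CPM per kb of Ccl6 and 517 ± 78.9 of Ccl9. Together the 4 genes took 4.50% of all reads of the female basophils and 7.22% of those of the male, and 1.49% and 1.79% of the reads of Mac III. In single basophils that share ran from 1.84% to 11.2%.

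Few cells therefore held most of the Ccl3 and Ccl4. Basophils were 4.47% ± 1.72 of the cells and held 84.5% ± 11.7 of the Ccl3 reads and 88.4% ± 4.61 of the Ccl4 reads (mean of 2 animals, SD). Giving each cell the same weight changed these to 83.2% and 89.2%. Mac III made up 33% ± 3.62 of the cells and held 87.1% ± 2.91 of the Ccl6 reads, with 6.19% ± 2.46 in basophils. Ccl9 came from both: basophils held 42.9% ± 12.5 of its reads and Mac III 39.8% ± 10.9. These shares describe the sorted cells and not the lung, since sorting sets how many cells of a subtype were taken.

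**Figure D2:**
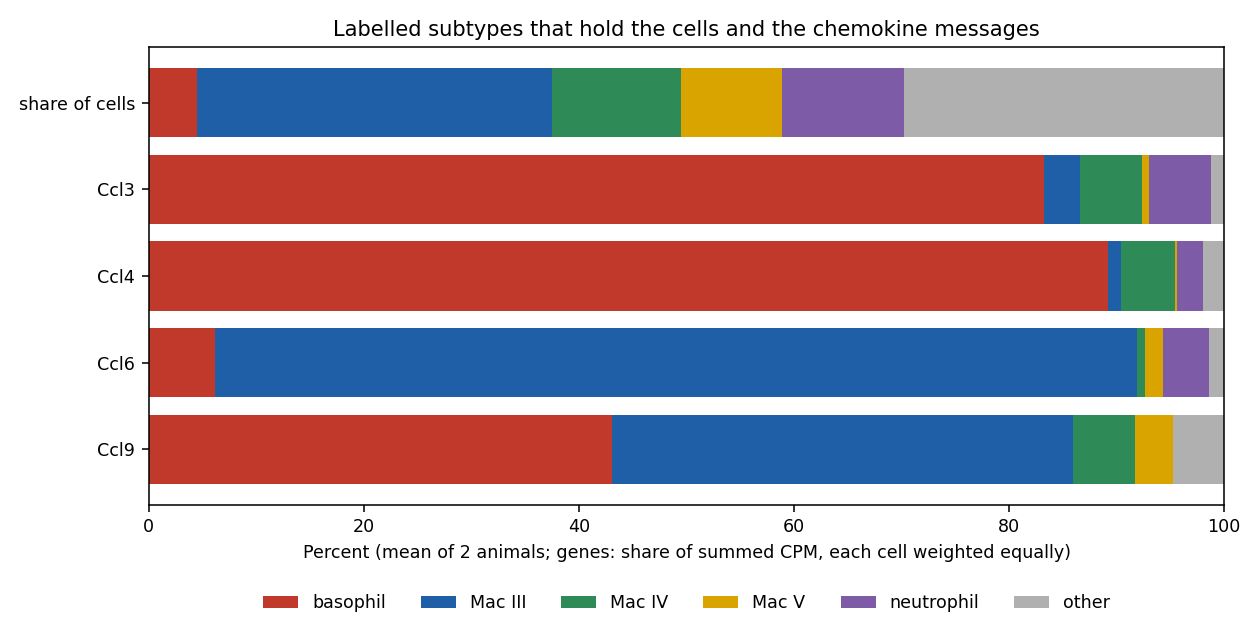
Share of the cells and of each gene's summed CPM by labelled subtype, in percent, mean of 2 animals with each cell weighted equally. Basophils (red) are 4.47% of the cells and hold 83.2% of Ccl3 and 89.2% of Ccl4, and Mac III (blue) holds 85.7% of Ccl6.

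The basophil levels were also compared between plates. Titles of the cells carry a code, called a run here, and what it stands for is not stated. The basophils of the female came from 2 plates of different runs (DC28 and DC35) and those of the male from 2 plates of 1 run (DC35). Because DC35 holds cells of both animals, it is called the shared run. Ccl3 in basophils was at 13079 and 20481 CPM on the female plates and at 27315 and 27119 CPM on the male ones. Ccl4 was at 6863 and 11897 CPM in the female and at 21153 and 25557 CPM in the male. Ccl6 ran at 4211 and 5689 CPM against 9979 and 9437 CPM. Ccl9 was at 13312 and 11156 CPM in the female and 13907 and 9989 CPM in the male, so it overlapped between animals, whereas the other 3 were lower on both female plates. With 1 animal per sex no test was made of that difference, and sex and animal cannot be told apart.

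Within single cells the messages were counted after each cell was thinned to 100000 reads, with 5 or more reads (50 CPM) taken as found, which left out 5 shallower cells. Ccl3 was found in 34 of 34 female basophils (exact interval 89.7% to 100%) and in 19 of 19 male ones. The lowest basophil had 5314 CPM of Ccl3, and 9 of the 1130 other cells reached that level. Ccl4 was found in 32 of 34 and 18 of 19 basophils, Ccl6 in 32 and 18, and Ccl9 in 33 and 18. None of the other 1130 cells reached the median basophil in Ccl3, Ccl4 or Ccl9, while 340 did in Ccl6, all but 8 of them Mac III.

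Outside basophils Ccl3 and Ccl4 were carried by a minority of cells. Mac IV had Ccl3 in 23 of 63 female and 38 of 79 male cells and Ccl4 in 14 and 24. Single Mac IV cells reached 7840 CPM of Ccl3 and 6229 CPM of Ccl4. In Mac III Ccl3 was found in 23.8% of female (exact interval 17.8% to 30.6%) and 27.4% of male cells (21.5% to 34%), and Ccl4 in 5.52% and 3.37%. Among neutrophils 5 of 55 and 14 of 78 had Ccl3, up to 18201 CPM in 1 male cell. By plate, Ccl3 in neutrophils was at 306.2 and 17.9 CPM in the female and at 367.98 and 666 CPM in the male.

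The share of cells with Ccl6 or Ccl9 differed widely among the subtypes that had them. Ccl6 was found in all but 1 of the female Mac III cells and in every male one, in 27 of 27 and 20 of 20 Mac II cells and in 61 of 66 and 42 of 44 Mac V cells. In neutrophils it was in 39 of 55 and 59 of 78, in Mac IV in 31 of 63 and 30 of 79, and in DC I in 4 of 16 and 7 of 24. Ccl9 was found in 88.95% of female and 86.1% of male Mac III cells, in 33 of 66 and 21 of 44 Mac V cells, and in 45 of 63 and 52 of 79 Mac IV cells. In neutrophils Ccl9 was found in 0 of 55 and 0 of 78 cells, which allows up to 5.45% and 3.85% of cells with 5 or more reads of 100000. A read of Ccl9 at full depth was seen in 1 of 56 female and 7 of 78 male neutrophils. T cells, a subtype that should lack both, had Ccl6 in 2 of 26 female and 0 of 20 male cells and Ccl9 in none. The median depth was 616659 reads in female and 571915 in male neutrophils against 1399827 and 1052877 in T cells.

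**Figure D3:**
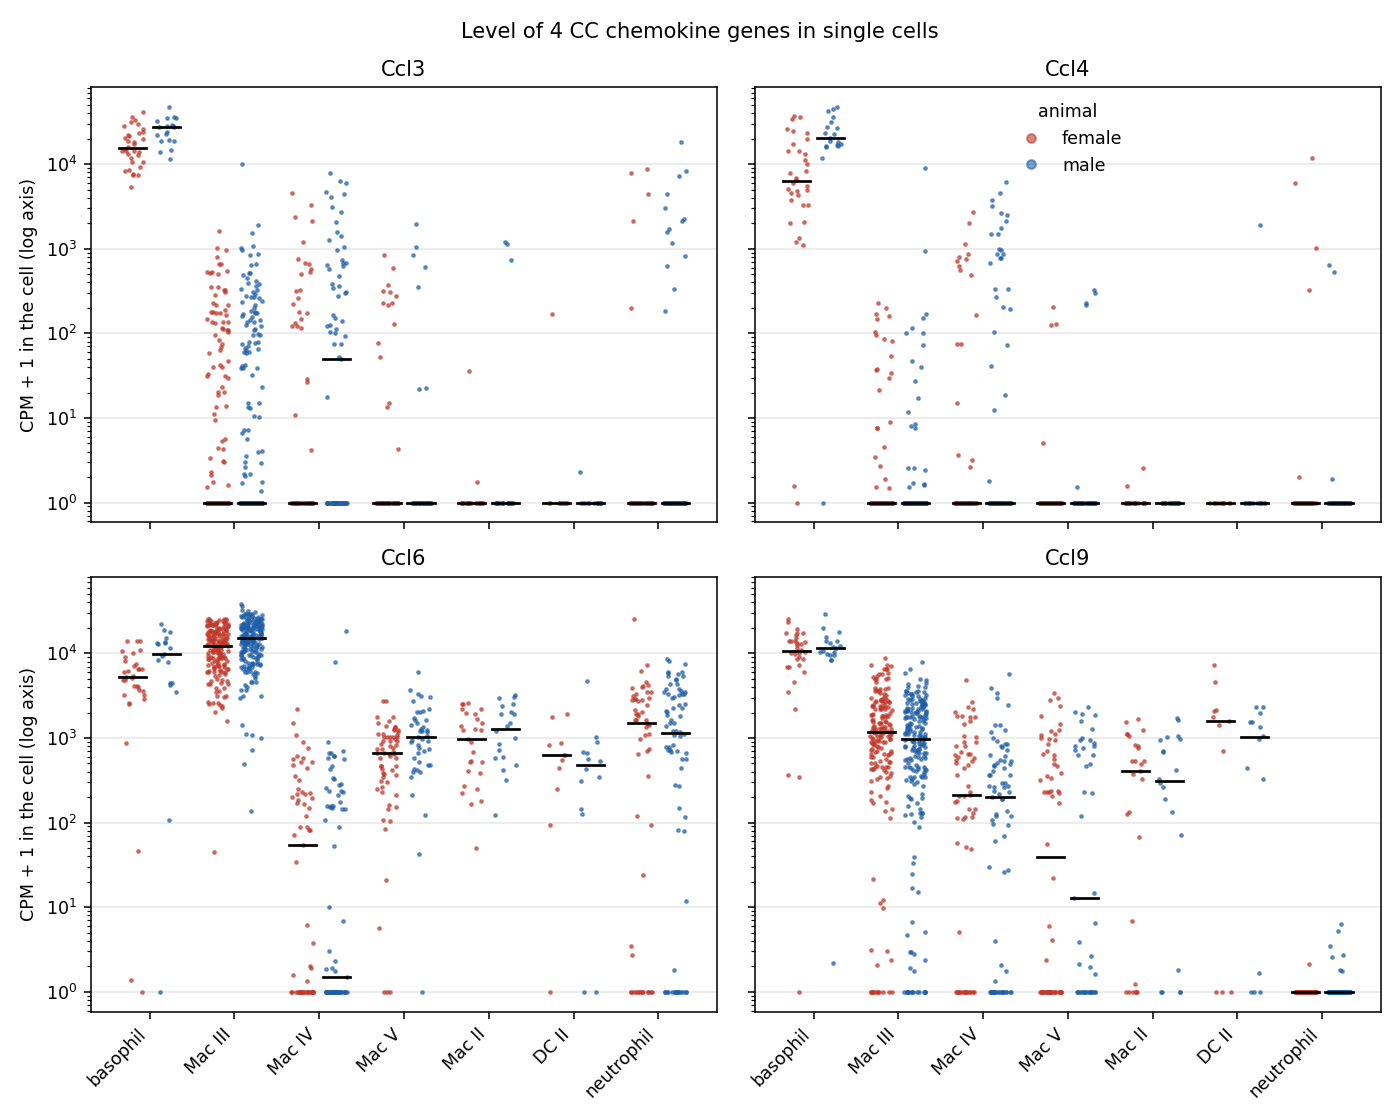
Level of each gene in single cells (CPM + 1, log axis) for 7 subtypes. Each point is a cell, red for the female and blue for the male, and black bars are medians, so that the Ccl3 points of basophils start at 5314 CPM while most Mac III, Mac V and neutrophil cells sit at 0 for Ccl3.

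Counting the 4 genes per cell set basophils apart. All 4 were found in 45 of 53 basophils and 3 in the other 8. Of the Mac III cells 250 (64.3%) had 2 of the genes, 96 had 3 and 5 had all 4. Mac IV was the most mixed, with 16 cells without any, 38 with 1, 50 with 2, 33 with 3 and 5 with all. Of the 55 cells of the series with all 4 genes, 45 were basophils, 5 Mac III and 5 Mac IV. None of the 14 IL cells had any.

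**Figure D4:**
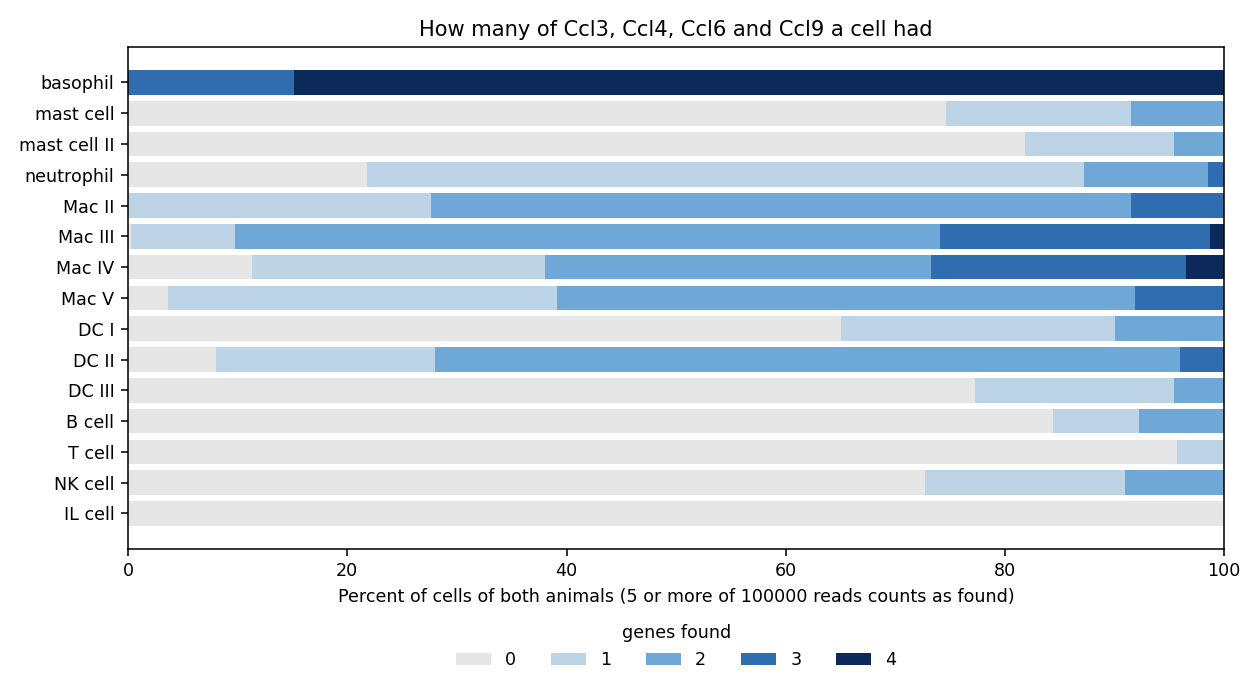
Percent of the cells of each labelled subtype, both animals together, in which 0 to 4 of Ccl3, Ccl4, Ccl6 and Ccl9 were found. In basophils 84.9% of cells had all 4, against 1.29% in Mac III and 3.52% in Mac IV.

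The pairs went together to different degrees. In basophils 50 cells had both Ccl3 and Ccl4, 3 had Ccl3 alone and 0 had Ccl4 alone. In Mac IV 22 cells had both, 39 Ccl3 alone, 16 Ccl4 alone and 65 neither, and in Mac III 5 of the 100 cells with Ccl3 also had Ccl4. Rank correlations across cells (Spearman's rho of thinned counts, cells of an animal sharing plates and preparation) are given as a description. In basophils rho of Ccl3 and Ccl4 was 0.60 in the female (n = 34 cells) and 0.48 in the male (n = 19). In Mac IV it was 0.29 and 0.20, and in Mac III 0.11 and -0.01.

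Ccl6 and Ccl9 had opposite signs in different subtypes. Their rho was 0.42 in the female and 0.28 in the male across Mac III cells, 0.48 and 0.23 across Mac IV (n = 63 and 79), and 0.71 and 0.49 across DC II (n = 11 and 14). Across basophils it was -0.53 and -0.64 (n = 34 and 19). Basophils with both genes gave -0.45 (n = 31) and -0.63 (n = 17). By plate rho was -0.73 and -0.48 in the female and -0.86 and -0.02 in the male, the last over 8 cells. In basophils Ccl6 had a rho of -0.30 and -0.12 with the reads per cell before thinning, and Ccl9 of 0.20 and -0.04, and the part of depth in the pair was not tested. The difference in sign between subtypes was not tested.

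Presence also differed by subtype. Ccl6 without Ccl9 was found in 98 neutrophils, 51 Mac V cells and 48 Mac III cells. Ccl9 without Ccl6 was found in 45 Mac IV cells and in 0 Mac III, Mac II or DC II cells.

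**Figure D5:**
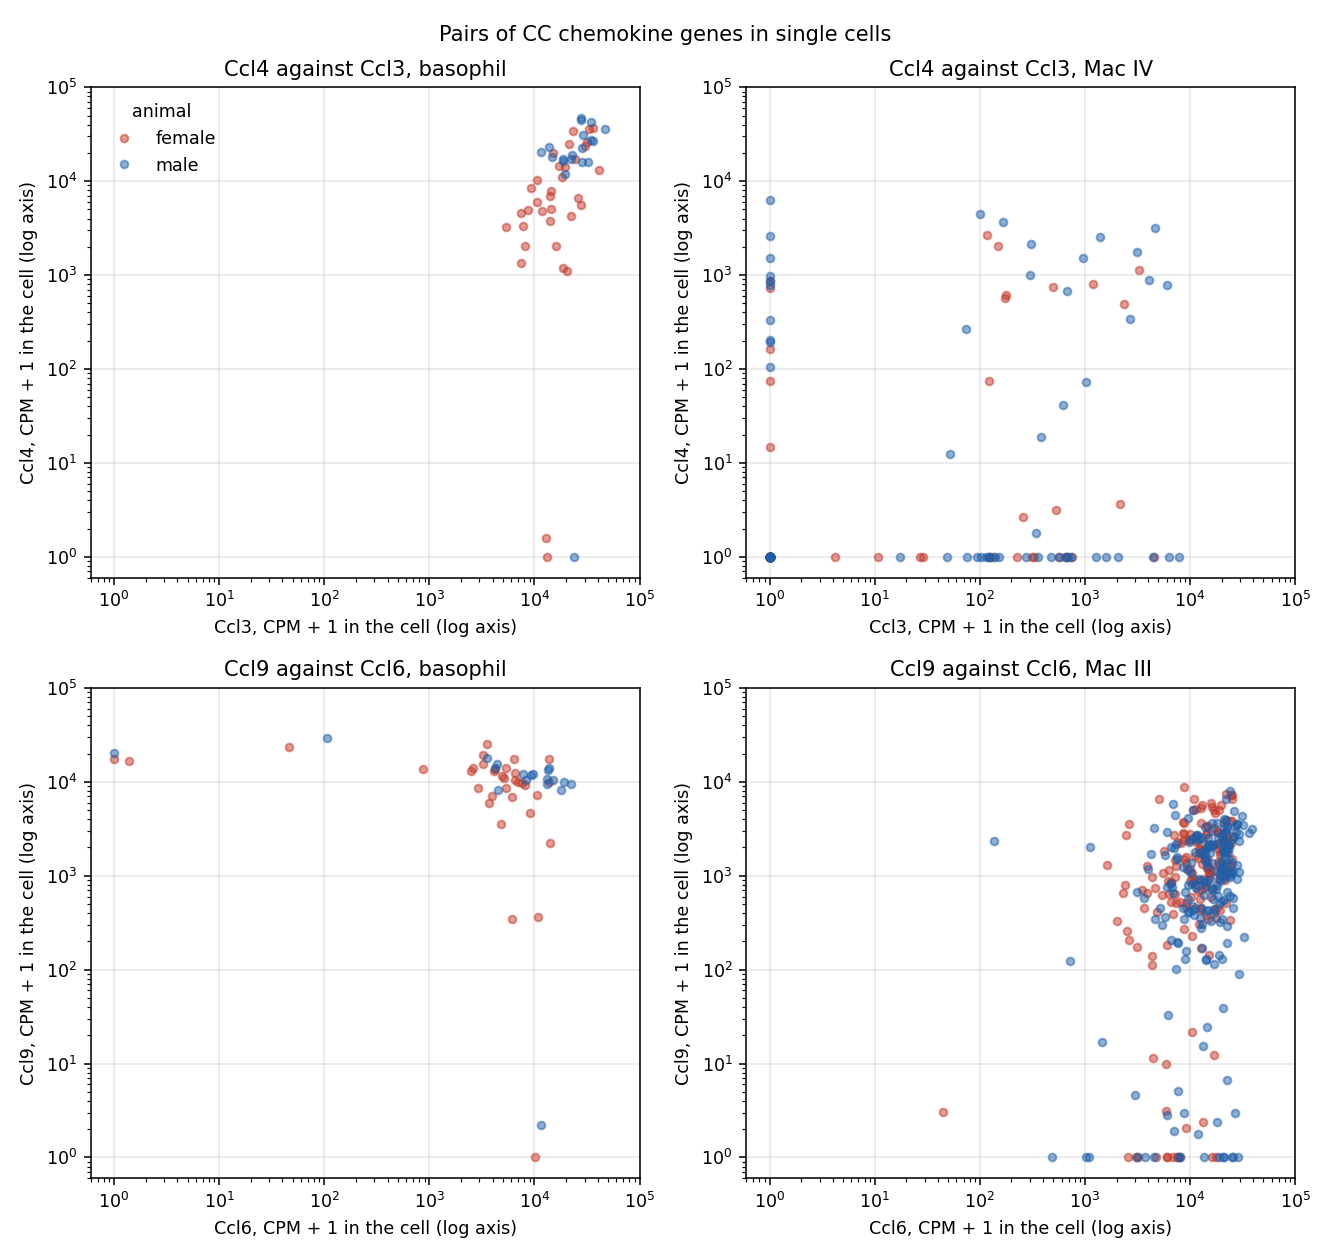
Ccl4 against Ccl3 in single basophils and Mac IV cells, and Ccl9 against Ccl6 in single basophils and Mac III cells (CPM + 1, log axes, 1 point per cell, colour by animal). Basophils fill 1 cloud for Ccl3 and Ccl4, while for Ccl6 and Ccl9 the cells lowest in 1 gene lie high in the other and Mac III cells spread upward together.

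Tests between related subtypes used edgeR's quasi-likelihood fit on the summed counts, with p-values adjusted over all 15600 tested genes by Benjamini-Hochberg and a call at an adjusted p under 0.05. Over 11 comparisons and 44 tests of the members, 6 were called. With 2 animals per subtype the fit finds only large changes. In simulated data for basophils against mast cells it called 2 of 50 genes changed 8-fold and 27 of 50 changed 32-fold. At a larger simulated fold, still below 176.7, it called 49 of 50. In the real data Ccl3 (295.5-fold by the ratio of means) and Ccl4 (176.7-fold) were not called in that comparison. The simulated rates are therefore not taken as the power for these 2 genes. The labels probably rest on expression in these cells, so calls describe the labelled classes.

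Basophils and mast cells both carry IgE receptors and granule proteases. Ccl6 and Ccl9 were higher in basophils, 2 of 4 members, where 0.724% of all genes were called higher in basophils. Ccl6 was at 5163 and 9728 CPM against 2 reads in mast cells, and the ratio of the pooled reads, each over the pooled library totals, was 288796 with a counting interval of 79946 to 2384690 (edgeR adjusted p 6.64e-05). Ccl9 was at 11923 and 12090 CPM against 12.7 and 17.8 CPM, a log2 fold change of 9.82 ± 2.03 (SE) with an edgeR adjusted p of 0.0146. Ccl9 lost the call when either mast cell library was left out, with an adjusted p of up to 0.158. Ccl3 (log2 fold change 8.42 ± 2.87, edgeR adjusted p 0.148) and Ccl4 (7.69 ± 3.58, adjusted p 0.286) did not pass. By the ratio of means Ccl3 was 295.5-fold and Ccl4 176.7-fold higher in basophils. Fitted on these subtypes alone, Ccl3 had an edgeR adjusted p of 0.00148.

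Against neutrophils, the other granulocytes of the set, 1 of 4 members was higher in basophils, beside 1.06% of all genes. That was Ccl9, with 9 reads in neutrophils and a log2 fold change of 16.95 ± 2.57 (edgeR adjusted p 0.00109), which held with each library left out in turn. Ccl3 (6.06 ± 2.58, adjusted p 0.205), Ccl4 (7.98 ± 3.62, adjusted p 0.231) and Ccl6 (2.22 ± 1.19, adjusted p 0.304) were not called by edgeR. Ccl3 was called in a fit of these 2 subtypes alone (edgeR adjusted p 0.0127) and with DESeq2 (0.0296).

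Neutrophils were also set against Mac V, the subtype with the monocyte genes Ly6c2 and Plac8. Ccl9 was lower in neutrophils, at 9 reads against 447 and 539 CPM (log2 fold change -12.01 ± 2.23, edgeR adjusted p 0.0190), where 0.288% of genes were called in that direction. The call was lost when any of the 4 libraries was left out and within the shared run (edgeR adjusted p 0.0758). Ccl6, at 1435 and 1626 CPM against 800 and 1251 CPM, had a log2 fold change of 0.99 ± 1.15 (adjusted p 0.813).

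No member was called between macrophage classes. Mac III and Mac IV differed in 0.263% of genes, and Ccl6 came nearest, 32.2-fold higher in Mac III by the ratio of means (log2 fold change 5.04 ± 1.35, edgeR adjusted p 0.164). It was called with DESeq2 (adjusted p 0.00538) and in a fit of these 2 subtypes alone (edgeR adjusted p 0.00600). In Mac III against Mac V, where 0.442% of genes were called, Ccl6 was 14.3-fold higher (3.79 ± 1.27, adjusted p 0.300). Ccl3 and Ccl4 in Mac IV were 5.02 and 28.9 times their means in Mac V, with edgeR adjusted p of 0.883 and 0.653 beside 0.167% of genes called. In Mac II against Mac V (0.115% of genes called) Ccl6 differed by a log2 fold change of 0.28 ± 1.14 and Ccl9 by 0.12 ± 1.39, both with an adjusted p of 1. At unadjusted edgeR p under 0.05, Ccl6 passed in the first and second of these comparisons and Ccl4 in the last (p 0.0440). Ccl4 was lower in Mac II there, at 2 reads against 3.74 and 19.7 CPM in Mac V. The share of all genes that pass this looser threshold is not given here.

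Of the dendritic classes DC II had the most Ccl6 and Ccl9. Ccl9 was lower in DC III, the class with Ccr7 and Fscn1, at 13.2 and 30.3 CPM against 3438 and 881 CPM (log2 fold change -6.23 ± 1.75, edgeR adjusted p 0.0464). In that comparison 3.71% of all genes were called lower. With the animal as a block the adjusted p was 0.0572, and no leave-one-out fit called it (up to 0.250). Ccl6 had a log2 fold change of -4.50 ± 1.32 (adjusted p 0.0537). Against DC I, the class with Xcr1 and Clec9a, Ccl9 in DC II was 155.6-fold higher by the ratio of means (7.11 ± 1.82, edgeR adjusted p 0.183), where 0.244% of genes were called.

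In NK against T cells Ccl6 was lower in NK cells (1 read, log2 fold change -9.60 ± 1.85, edgeR adjusted p 0.0123), beside 1.13% of genes called in that direction. Its T cell level rests mostly on 2 cells, and the edgeR adjusted p was 0.417 within the shared run. The NK class held only 5 female and 7 male cells. After thinning Ccl6 was found in 0 of 11 NK cells and in 2 of 46 T cells. A level near 0 in so few NK cells therefore does not set them apart from most T cells. Ccl3 in NK cells, at 439 and 7.47 CPM against 1 read in T cells, was not called (adjusted p 0.0776). Mast cell II against mast cells gave no call among the members, with 0.788% of genes called.

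Receptors of CC chemokines were measured in the same cells, among them Ccr1, Ccr3 and Ackr2, while Ccr1l1 had no row. Ccr1, which binds Ccl3, Ccl6 and Ccl9, was at 543 and 386.9 CPM in neutrophils, 626 and 300 CPM in Mac IV and 650 and 193.2 CPM in basophils. Ccr3, a receptor of eosinophils and basophils, was at 152.96 and 87.5 CPM in basophils and at 22.1 CPM or less elsewhere. Ackr2, a decoy receptor that takes up CC chemokines, did not exceed 14.9 CPM. Ccr1 was lower in DC III than in DC II, where Ccr3 and Ackr2 did not pass, and none of Ccr1, Ccr3 and Ackr2 was called in the other 10 comparisons.

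None of the other CC ligands measured had its highest mean in basophils. Of 16 such genes Ccl20 had no row and 11 were tested. Ccl27a came nearest, at 5.67 and 21.8 CPM in basophils and 1.25 and 35.96 CPM in mast cell II. It was not called between basophils and mast cells (log2 fold change 2.19 ± 2.37, edgeR adjusted p 0.765) or neutrophils (12.79 ± 3.83, adjusted p 0.0874), where it had 0 reads. Ccl2 and Ccl7, which attract monocytes, were higher in mast cells than in basophils, 2 of 11 tested beside 0.987% of all genes, and 0 higher in basophils, with a median log2 fold change of 0.00 beside -0.15 over all genes. Ccl2 was at 1452 and 1780 CPM in mast cells and 1187 and 3986 CPM in Mac IV, and had 0 CPM in basophils. Ccl5 was higher in DC III than in DC II (1 of 11 beside 0.878% of genes), at 13847 and 29487 CPM, with at most 0.02 CPM in basophils. Ccl7 and Ccl12 were higher in Mac IV than in Mac V (2 of 11 beside 0.0962% of genes) and than in Mac III (2 of 11 beside 0.212%). Ccl2 and Ccl7 were also lower in mast cell II than in mast cells, where 0.647% of genes were called lower.

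Ccl3 and Ccl4 belong to the genes that many stimuli switch on rapidly, so 18 such genes were followed. In basophils against mast cells 2 of 18 were higher beside 0.724% of all genes, Nfkbia (2660 and 5492 CPM in basophils) and Il1b (152.4 and 0 CPM), and 1 of 18, Dusp2, was lower beside 0.987%, with a median log2 fold change of 0.10 beside -0.15 over all genes. Ier3, at 3840 and 5987 CPM in basophils, and Junb, at 2517 and 2647 CPM, had their highest means there. Atf3 had at most 0.02 CPM in basophils and was lower there than in neutrophils, as was Dusp2 (2 of 18 beside 1.89% of genes). In Mac III against Mac V 4 of 18 were lower (Egr1, Junb, Nr4a1 and Dusp1), beside 0.314% of genes, with a median log2 fold change of -2.07 against 0.14 over all genes. In Mac III against Mac IV Egr1 and Junb were lower (2 of 18 beside 0.212% of genes). In DC III against DC II 4 of 18 were lower (Egr1, Fosb, Nr4a1 and Il1b) beside 3.71% of genes, and in DC II against DC I Nfkbiz was higher (1 of 18 beside 0.218% of genes). The handling and sorting of the cells can also switch such genes on, and its part was not tested.

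The genes most like each member over the 30 libraries were ranked by Pearson's r of log2(CPM + 1), among 8305 genes. The other members were left out of this ranking. For Ccl3 they were Osm, a cytokine of the interleukin 6 family (r = 0.73), Hgf, hepatocyte growth factor (0.71), and C5ar2, a receptor for complement C5a (0.70). For Ccl4 they were Alox15, a lipoxygenase (0.70), Tnfaip8 (0.67) and Smim3 (0.67). For Ccl6 they were Rhbdf2, a partner of the TNF-releasing protease (0.89), Trf, transferrin (0.88), and Igsf6 (0.87). For Ccl9 they were Adora2b, an adenosine receptor (0.80), Adgre1, which encodes F4/80 (0.79), and C3ar1, the C3a receptor (0.78). Among the members r was 0.69 for Ccl3 with Ccl4 and 0.74 for Ccl6 with Ccl9. For Ccl4 the r with Ccl3 was thus above those with Tnfaip8 and Smim3. Libraries of an animal share plates, and subtypes weigh equally whatever their size.

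Within subtypes the nearest genes differed from these. In neutrophils Ccl6 went with Il1b (rho 0.56 in each animal), Junb (0.55 and 0.60) and the kinase gene Pim1 (0.54 and 0.57), over 55 and 78 cells. In Mac IV Ccl3 went with Klf6 (0.41 and 0.38), Clic4 (0.35 and 0.36) and Atf3 (0.29 and 0.31), and Ccl4 with Atf3 (0.34 and 0.32), Xaf1 and Nfkbiz. In the same cells Ccl6 went with Lgals3 (0.44 and 0.45), Clec7a and Alox5ap, and Ccl9 with Dok2, Alox5ap (0.54 and 0.35) and Fcgr2b. In Mac V Ccl9 went with Ccr2, the receptor for Ccl2 (0.50 and 0.42), Ms4a6b and Mndal. In Mac III Ccl9 was nearest to Ccl6, and in basophils Ccl4 was nearest to Ccl3, each at the values given above.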

How the data were processed

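Plate-based, Tn5-tagmented libraries of 1183 single cells were used, each GEO sample being 1 cell. The values are raw read counts per gene as the authors deposited them. The submitters' processing notes name STAR 2.5.2b, HTSeq 0.10 and the build GRCh38, which is a human build name beside mouse samples, so no coordinates are given. All columns matched a sample by title. Counts were summed per animal and labelled subtype, leaving out Mac I (1 cell), which gave 30 libraries. edgeR 4.0.16 (R 4.3.3) was run with TMM, filterByExpr and 1 coefficient per subtype on 15600 genes (common biological coefficient of variation 1.15), and tested on simulated data of 15454 genes. Nothing says that plates or cells are independent of the animal, so counts were summed per animal. The p-values rest on the spread between the 2 animals, pooled over all subtypes of the fit and shared in part across genes. They do not rest on the spread within the compared subtypes alone. Intervals are exact Clopper-Pearson or Poisson at 95%, and a count of 0 is limited by 3 counts.

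The members and lists were chosen with earlier results of these data known. Members are always named. List genes were named where called in a comparison or at 100 CPM or more in their highest subtype, at most 5 per list. 1 gene of the list of receptors is not reported here. The 3 most similar genes were taken over libraries among genes other than members (50 CPM or more in the highest subtype). Within subtypes they were taken, members included, by the lower rho of the 2 animals. That needed at least 15 cells per animal and the member in 20% to 95% of cells. The labels name the animal of each cell, so the 2 libraries of every subtype come from the same female and male and are paired by animal. The deviations of an animal correlated between subtypes by -0.06 to 0.08 (median 0.03, 105 pairs). Alternatives were the animal as a block, DESeq2 1.42.0, RLE size factors, equal weight per cell, the shared run, larger subtypes, the compared subtypes alone, other read minimums, and each library left out. No doublet caller was run, since cells were sorted singly into wells.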

Additional observations from a re-analysis of the deposited data

Results flagged for a closer look

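Among the tests with over 3 reads in the higher library of each animal, 6 had the female and the male moving in opposite directions, and the difference between animals was not tested. Ccl4 in mast cell II minus mast cells was -167.4 CPM for the female (21.04 against 188.5 CPM) and 126.1 CPM for the male (0.036 CPM in mast cells). Ccl9 in the same comparison was 1.86 CPM (female) and -17.7 CPM (male). Ccl4 in neutrophils minus Mac V was 107.8 CPM (female) and -11.9 CPM (male). Ccl3 in Mac II minus Mac V was -60.1 CPM (female) and 3.54 CPM (male). In DC II minus DC I, Ccl3 was 54.2 CPM (female) and -1.98 CPM (male), and Ccl4 was -91.2 CPM (female) and 101.97 CPM (male). Of the reads behind the Ccl4 levels, 1 cell gave 83.4% in male mast cell II, 49.2% in female mast cells (where 7 cells had the gene), 51.2% in female neutrophils, 100% in male DC II and 86.4% in female DC I.

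The single Mac I cell, of the male, entered no comparison. It had Ccl6 at 360 CPM (exact Poisson interval 336.8 to 384.8) and Ccl9 at 2306 CPM (2246 to 2367), and no read of Ccl3 or Ccl4.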

How the results depend on the processing

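Of the 6 called tests of single members, 3 lost the call under some alternative other than leave-one-out and 4 under leave-one-out, and 13 and 1 uncalled tests gained one. No called test changed sign. Uncalled tests did: with the animal as a block, Ccl6 in mast cell II against mast cells went from 0.01 to -0.0050 (log2 fold change) and Ccl4 in DC II against DC I from 0.00 to -0.78, and the latter was -0.019 with no filter on low counts. Leaving out 1 library reversed 9 uncalled tests. Their log2 fold changes ran from -2.94 to 10.19 (Ccl4) and -3.36 to 3.37 (Ccl6) in mast cell II against mast cells, -0.085 to 4.58 (Ccl4) in neutrophil against Mac V, -0.48 to 0.99 (Ccl3) and -0.62 to 3.35 (Ccl4) in Mac III against Mac V, -5.65 to 0.44 (Ccl3) in Mac II against Mac V, -4.34 to 9.27 (Ccl3) and -14.29 to 1.96 (Ccl4) in DC II against DC I, and -2.74 to 15.56 (Ccl4) in NK against T cells.

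With the animal as a replicate block, the pairing by animal, DC III against DC II gave 0 called members in place of 1, and no other count of members moved. DESeq2 called 3 members in basophil against mast cell, 2 in basophil against neutrophil, 1 in Mac III against Mac IV, 1 in Mac III against Mac V, 1 in DC II against DC I, 4 in DC III against DC II and 3 in NK against T cells. The compared subtypes alone gave 3 in basophil against mast cell, 2, 2 and 2 in basophil against neutrophil, Mac III against Mac IV and Mac III against Mac V, 1 in Mac IV against Mac V, 2 in DC III against DC II and 0 in NK against T cells. The shared run gave 0 in neutrophil against Mac V and 0 in NK against T cells. For DC III against DC II, RLE factors gave 0, equal weight per cell 0 and larger subtypes (at least 10 cells per animal) 2. The fit of larger subtypes gave no value for mast cell II and NK cells. The share of all genes called under each alternative is not given here. These counts therefore do not show whether members gained more calls than other genes did. The causes were not tested.

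Leaving out 1 library gave 1 to 2 called members in basophil against mast cell, 0 in neutrophil against Mac V, 0 to 1 in DC II against DC I, 0 in DC III against DC II and 0 to 1 in NK against T cells. The share of cells with Ccl3 (23.4%) was 27.2% at 1 read and 16.6% at 20 reads of 100000. Ccl4 (11.5%) went to 13.3% and 9.5%, Ccl9 (51.4%) to 53.2% and 46.7%, and Ccl6 (67.3%) to 62.6% at 20 reads. Ccl9 was in 52.02% within the shared run. With the labelled coverage as denominator Ccl6 in Mac III was at 12397 CPM and Ccl9 in basophils at 10402 CPM. Ccl9 in basophils was at 11744 CPM as a mean over cells, 11623 CPM in the shared run and 11720 CPM without the cell with the most reads in each animal. Depth limits the members least in Mac III and most in NK and IL cells, whose libraries are small.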

Other observations

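Genes that ran against Ccl6 and Ccl9 were looked up after the values above had been seen. In neutrophils the lowest rank correlations with Ccl6 were those of Cd63-ps, a copy of Cd63 whose reads are uncertain for that reason (-0.41 in the female and -0.42 in the male), Cd177, a surface protein of neutrophils (-0.39 and -0.51), Cebpe, a transcription factor of granule formation (-0.39 for both animals), Cd63 (-0.36 and -0.42) and Hsd11b1 (-0.36 and -0.35). Adgre5 (0.50 and 0.59) and Mcl1, a survival factor of neutrophils (0.46 and 0.50), followed Il1b, Junb and Pim1 at the other end. Retnlg, a marker of neutrophils that was looked up by name, was at neither end (-0.14 and -0.09). A link of Ccl6 to neutrophil maturation was not tested.

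In Mac III the genes nearest to Ccl6 were Bcap31 (0.41 and 0.38), Ctss, the protease cathepsin S (0.37 and 0.40), S100a1 (0.43 and 0.36) and Fabp5, a fatty acid carrier (0.35 and 0.37). C5ar1, the receptor for C5a, was among the lowest (-0.26 and -0.30). In basophils Ccl6 was the gene lowest in rho with Ccl9 and Ccl9 the gene lowest with Ccl6. Ccl3 in basophils went with Cd63 (0.45 and 0.42) besides Ccl4. Lowest in rho with Ccl3 were Kdm5a (-0.52 and -0.54), Itm2c (-0.46 and -0.48) and Alox5, which starts leukotriene synthesis (-0.41 and -0.48). Cox6b1 (-0.49 and -0.40) and Itga2b (-0.63 and -0.40) came next, by the weaker rho of the 2 animals. These are rank correlations over cells, given as descriptions.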
